A study of Mus musculus with 8 samples.

Results

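Cell division in activated T cells is run by a conserved set of genes, and 49 of them were followed here across wild-type and Eos-deficient T helper cells. The genes were chosen by their symbols, as cyclins, cyclin-dependent kinases and their inhibitors, pocket proteins, E2F factors, replication genes and mitosis genes. The rule uses the symbol alone and no value of these libraries, but the list was drawn up with earlier results of these data known. All 49 were among the 49040 genes of the deposited count table, and all 49 were among the 14672 genes with enough counts to be tested. The groups were 4 wild-type libraries (WT1 to WT4) and 4 Ikzf4-/- libraries (KO1 to KO4, called Eos KO by the submitters), all from C57BL/6J mice according to the labels. Eos, the product of Ikzf4, is an Ikaros-family DNA-binding factor. In both groups naive CD4+ T cells grew under Th1-polarizing conditions on plate-bound antibodies to CD3 and CD28, and total RNA was taken at 72 h. The labels do not say whether the deletion was limited to T cells, nor whether each library came from its own animal, so the p-values rest on the spread among these libraries, which may be technical.

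D-type cyclins with Cdk4 and Cdk6 start the cycle by phosphorylating the pocket proteins Rb1, Rbl1 and Rbl2, which then release E2F factors, and the released activator E2Fs switch on the genes of DNA replication. In resting cells Rbl2 (p130) and a repressor E2F join the MuvB proteins in the DREAM complex, which holds cell cycle genes down. In dividing cells the same MuvB proteins pair with Mybl2 (B-Myb) and Foxm1 at CHR elements, short promoter motifs typical of mitosis genes, while E2F sites are typical of replication genes. A naive T cell is at rest, and stimulation through its receptor brings it into rapid division.

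Promoters of 42 of the 49 genes were found in RefSeq (GRCm38.p6, 250 bases before to 50 bases after the annotated start). Ccne2, Ccna2, Rb1, Mcm4, Gins2, Aurkb and Foxm1 are named only. Both strands were searched for the E2F letters TTTCCCGC, TTTCGCGC, TTTGCCGC and TTTGGCGC, for the CHR letters TTTGAA and TTCGAA, and for the CCAAT box. An E2F match stood in 11 of the 42 genes (26.2%), against 4.73% of the 10144 tested genes with a promoter and 2.61% of all 27025 genes in the promoter table. The MCM helicase genes held it in 4 of 5 and the mitosis genes in 0 of 11. A CHR match stood in 18 genes (42.9%, against 16.3% of the tested and 21.7% of all genes), among them 9 of the 11 mitosis genes. CCAAT was found in 30 genes (71.4%, against 42.9% and 41.1%). In the 150 bases before the start alone, E2F letters stood in 6 genes (14.3%, against 2.63% of the tested genes), 2 of them among the 5 MCM genes, and CHR letters in 9 genes (21.4%, against 7.62%), 4 of them among the 11 mitosis genes. These are letter matches in a window of 300 bases, not shown binding sites.

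Of these promoters 5 are printed, each with an E2F or CHR match. In the results below Rbl2 and E2f8 separated the genotypes, and Mcm5, Cdc20 and Mki67 separated the replicate numbers. This choice is partial. Tyms and Mybl2, also called between genotypes below, and Cdkn1a, which also separated the replicate numbers, held neither match and are not printed. Each run is the 250 bases before the start, 5′ to 3′ on the gene's strand, with E2F or CHR matches on either strand in capitals. Rbl2 (chr8:91069807-91070056, plus strand) has a CHR match 201 bases before the start. E2f8 (chr7:48881597-48881846, minus strand) has one 20 bases before it. In Mcm5 (chr8:75109259-75109508, plus strand) a pair of E2F matches on opposite strands overlap, beginning 153 and 149 bases before the start. Cdc20 (chr4:118437344-118437593, minus strand) has a CHR match at 18 bases, and Mki67 (chr7:135716380-135716629, minus strand) has CHR matches at 116 and 98 bases.
Rbl2: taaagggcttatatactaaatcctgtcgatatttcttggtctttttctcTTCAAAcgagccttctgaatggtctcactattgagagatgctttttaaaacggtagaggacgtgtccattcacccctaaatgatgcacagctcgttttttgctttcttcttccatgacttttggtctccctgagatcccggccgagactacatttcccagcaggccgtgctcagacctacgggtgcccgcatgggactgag
E2f8: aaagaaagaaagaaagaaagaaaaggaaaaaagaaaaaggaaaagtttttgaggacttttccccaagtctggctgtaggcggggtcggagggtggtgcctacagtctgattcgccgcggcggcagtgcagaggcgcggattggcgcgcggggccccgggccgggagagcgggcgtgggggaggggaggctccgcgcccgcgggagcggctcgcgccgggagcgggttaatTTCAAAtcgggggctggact
Mcm5: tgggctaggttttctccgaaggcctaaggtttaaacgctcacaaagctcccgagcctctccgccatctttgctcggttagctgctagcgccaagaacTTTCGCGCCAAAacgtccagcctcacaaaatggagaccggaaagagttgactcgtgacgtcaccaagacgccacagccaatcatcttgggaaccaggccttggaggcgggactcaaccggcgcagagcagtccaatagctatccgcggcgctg
Cdc20: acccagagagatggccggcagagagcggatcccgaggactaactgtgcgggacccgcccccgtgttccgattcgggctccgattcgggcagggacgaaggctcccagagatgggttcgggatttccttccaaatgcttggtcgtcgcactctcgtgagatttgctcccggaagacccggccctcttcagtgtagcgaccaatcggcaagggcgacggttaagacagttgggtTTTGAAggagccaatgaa
Mki67: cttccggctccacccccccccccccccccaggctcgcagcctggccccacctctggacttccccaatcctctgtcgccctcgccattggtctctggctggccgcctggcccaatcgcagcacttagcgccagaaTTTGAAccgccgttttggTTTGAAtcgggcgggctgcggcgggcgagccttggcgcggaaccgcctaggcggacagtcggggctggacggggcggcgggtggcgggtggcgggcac

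The Ikzf4 label was checked first. Ikzf4 stood at 41.1, 41.4, 48.1 and 54.9 CPM (counts scaled to library size with edgeR's TMM factors) in WT1 to WT4, and at 2.14, 2.58, 4.88 and 3.63 CPM in KO1 to KO4. It was lower in every knockout library (log2 fold change -3.82 ± 0.27 SE, edgeR adjusted p = 0.000505). The libraries held 25227017 to 53149322 counts, and the 49 cell cycle genes took 0.878% to 1.03% of them. The lowest count of any of the 49 in any library was 477. T cell genes (Cd3d, Cd3e, Cd3g, Cd4, Trac, Lck) summed to 1907 to 2529 CPM in the 8 libraries, and the CD8 genes Cd8a and Cd8b1 to 3.32 to 16.2 CPM. The 3 gamma-delta receptor constant genes summed to 51.3, 39.3, 35.4 and 15.3 CPM in WT1 to WT4 and to 13.2, 14.4, 8.39 and 4.46 CPM in KO1 to KO4, and all 3 were called by genotype and by replicate number in the blocked fit described below. In bulk RNA, fewer cells of a type and less RNA per cell cannot be told apart. Xist, which marks female cells, reached 503 CPM in WT2 and 588 CPM in KO2 and stayed under 0.6 CPM in the other 6 libraries, so sex and the replicate number 2 cannot be told apart.

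Libraries with the same replicate number lay close together in both genotypes, as described with the processing, so 2 fits are given. The first has genotype as its only term. The second, called the blocked fit, also gives each replicate number its own level and so compares KO1 with WT1, KO2 with WT2 and so on. A gene was called when its edgeR p-value, adjusted over all 14672 genes, was under 0.05.

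Per kilobase of exon, Pcna was the most abundant of the 49, with a median over the 8 libraries of 226 CPM per kb. Pcna is the sliding clamp that holds DNA polymerase on the template. Rrm2 (137), Cdkn1a (135), Cdc20 (114), Cdk4 (108) and Mcm3 (105 CPM per kb) followed. The lowest levels were those of the repressor E2F gene E2f7 (3.16), Rbl2 (8.19) and Rb1 (9.39 CPM per kb). Mki67, the usual marker of cycling cells, stood at 423 to 780 CPM and Top2a at 702 to 1008 CPM over the libraries of both genotypes. The median SD of log2 CPM over the 8 libraries was 0.167 for the 49 genes and 0.283 over all genes tested. The latter include genes of far lower level, and the comparison was not matched for level.

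**Figure D1:**
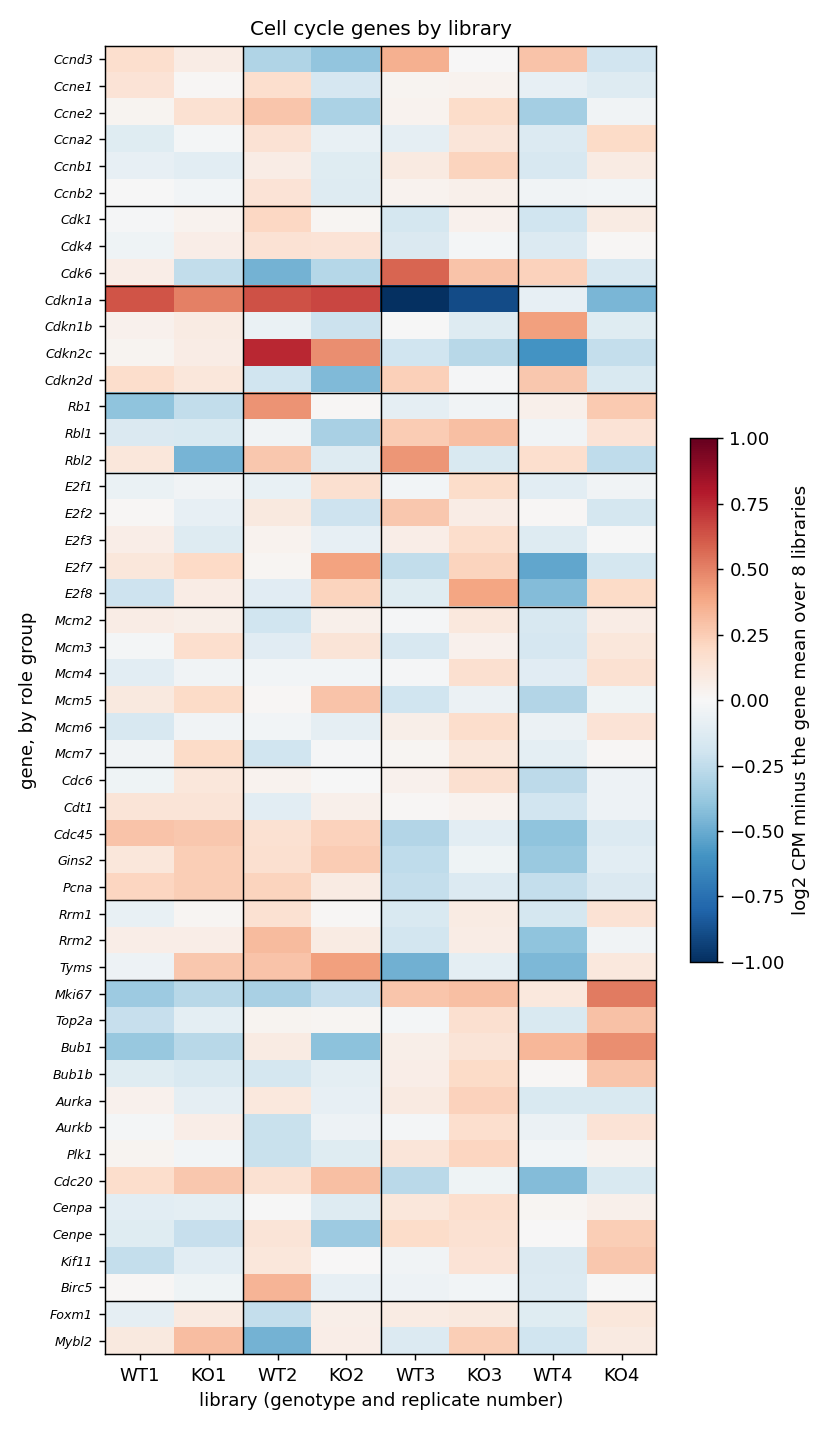
Log2 CPM of each of the 49 genes in each of the 8 libraries, minus that gene's mean over the 8 libraries (colour, log2 units, colours end at 1 in either direction). Rows are grouped by role and columns place the wild-type and knockout library of a replicate number side by side; Cdkn1a is dark red in numbers 1 and 2 and dark blue in number 3 of both genotypes.

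Few of the 49 genes separated the genotypes, and those that did differed by less than 1.5-fold. With genotype alone, edgeR called 0 of 49 genes, where it called 0.157% of all genes tested. At an unadjusted p under 0.05 that fit had 4 of the 49 (Rbl2, E2f8, Mcm3 and Mybl2), a share of 8.16% that lay beside 8.1% of all genes. DESeq2 called 1 of the 49, Rbl2 (adjusted p = 0.0213), and 1.46% of the 15366 genes to which it gave an adjusted p. The authors' deposited DESeq2 comparison rests on the same counts and holds the same 1 call, so it is not a second source. The blocked edgeR fit called 4: Rbl2 lower, and E2f8, Tyms and Mybl2 higher in the knockout. That is 8.16% of the 49 beside 6.71% of all genes, so the share of called genes was near the background. At an unadjusted p under 0.05 the blocked fit had 15 of the 49, 30.6% beside 21.7% of all genes. Of these, 11 were higher in the knockout (22.4%, background 10.5%) and 4 were lower (8.16%, background 11.2%). Of the adjusted calls, 3 of 49 were higher (6.12%, background 2.69%) and 1 was lower (2.04%, background 4.01%). The gamma-delta receptor genes were also lower in the knockout, and their part in these differences was not tested.

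Rbl2 (chr8:91070057-91123844, GRCm38), the pocket protein of the DREAM complex, had the largest fall among the 49. Its level was 67.1, 74.5, 84.1 and 69.7 CPM in WT1 to WT4 and 44.9, 56.7, 55.7 and 51.9 CPM in KO1 to KO4. Every knockout library lay below every wild-type library (exact permutation test of log2 CPM, two-sided p = 0.0286, the smallest that 4 against 4 allows). This unadjusted p follows for any gene whose groups do not overlap, as in 4.96% of all genes tested, so it adds nothing to that separation. The knockout level was 1.41-fold lower (-0.50 ± 0.11, edgeR adjusted p = 0.252 with genotype alone, and -0.50 ± 0.08, adjusted p = 0.00684 with the block). The blocked call was lost without the pair numbered 3 (adjusted p = 0.0591) and stood without any other pair. Rbl2 overlaps Aktip and Gm45464 on the opposite strand, and the strand setting of the counting is not given in the sources used here. The other pocket protein genes were not called in either fit: Rb1 stood at 58.2 ± 14.5 (wild type) and 57.4 ± 8.40 CPM (knockout), and Rbl1 (p107) at 81.6 ± 10.04 and 81.2 ± 15.9 CPM (SD, n = 4 each).

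E2f8 (chr7:48866429-48881596), an atypical E2F that represses E2F target genes, had the largest rise. It measured 50.7, 53.9, 53.7 and 43.3 CPM in WT1 to WT4 and 61.6, 68.1, 76.7 and 66.7 CPM in KO1 to KO4. The groups did not overlap (exact permutation test, two-sided p = 0.0286). The knockout was 1.35-fold higher (0.44 ± 0.11, edgeR adjusted p = 0.301 with genotype alone, and 0.44 ± 0.08, adjusted p = 0.019 with the block). The blocked call was lost without the pair numbered 3 (adjusted p = 0.126) or 4 (0.0819). E2f8 overlaps the transcript Gm2788 on the opposite strand.

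E2f7, the partner gene of E2f8, lay higher in all 4 knockout libraries than in the same-numbered wild-type ones, without a call in either fit. Its level was 29.4, 27.5, 22.9 and 18.9 CPM in WT1 to WT4 and 31.2, 35.9, 31.6 and 24.0 CPM in KO1 to KO4, with groups that overlap (0.32 ± 0.09 with the block, edgeR adjusted p = 0.0833). The activator E2Fs showed no common direction. E2f1 was 39.0 ± 0.841 (wild type) and 43.0 ± 3.54 CPM (knockout), E2f3 was 55.9 ± 3.60 and 55.2 ± 5.35 CPM, and E2f2 was 124 ± 10.7 and 109 ± 9.71 CPM (SD, n = 4). E2f2 was lower in the knockout in all 4 pairs, and neither fit called it (edgeR adjusted p = 0.699 and, with the block, 0.143).

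Mybl2 (chr2:163054687-163084688), the B-Myb activator of mitotic genes, was 97.6, 65.6, 82.7 and 79.2 CPM in WT1 to WT4 and 113, 95.6, 108 and 96.8 CPM in KO1 to KO4. WT1 lay above KO2 and KO4, so the groups overlap, although each knockout library exceeded its own pair. The blocked fit gave 0.36 ± 0.08 (1.28-fold, edgeR adjusted p = 0.0321), and genotype alone gave 0.35 ± 0.13 (adjusted p = 0.529). Of the 4 blocked fits that left out a pair, only the fit without number 2 kept the call; without 1, 3 or 4 the adjusted p was 0.0629, 0.177 and 0.0834. Foxm1, the other mitotic activator, was 74.9 ± 6.97 (wild type) and 84.5 ± 1.41 CPM (knockout) (SD, n = 4) and was not called (edgeR adjusted p = 0.699, with the block 0.211).

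Tyms (chr5:30058202-30073617) makes thymidylate for DNA synthesis. It was 91.5, 115, 68.1 and 69.5 CPM in WT1 to WT4 and 114, 126, 88.7 and 102 CPM in KO1 to KO4. The groups overlap widely, and the genotypes separate only within pairs, where the knockout was higher in all 4. The blocked fit gave 0.34 ± 0.08 (1.27-fold, edgeR adjusted p = 0.0452), close to the threshold, and genotype alone gave 0.32 ± 0.19 (adjusted p = 0.737). Leaving out pair 1, 3 or 4 ended the blocked call (adjusted p = 0.139, 0.213 and 0.193). The ribonucleotide reductase genes, which make deoxynucleotides, were not called: Rrm1 was 462 ± 50.1 and 504 ± 22.5 CPM, and Rrm2 was 355 ± 76.4 and 374 ± 13.9 CPM in wild type and knockout (SD, n = 4).

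**Figure D2:**
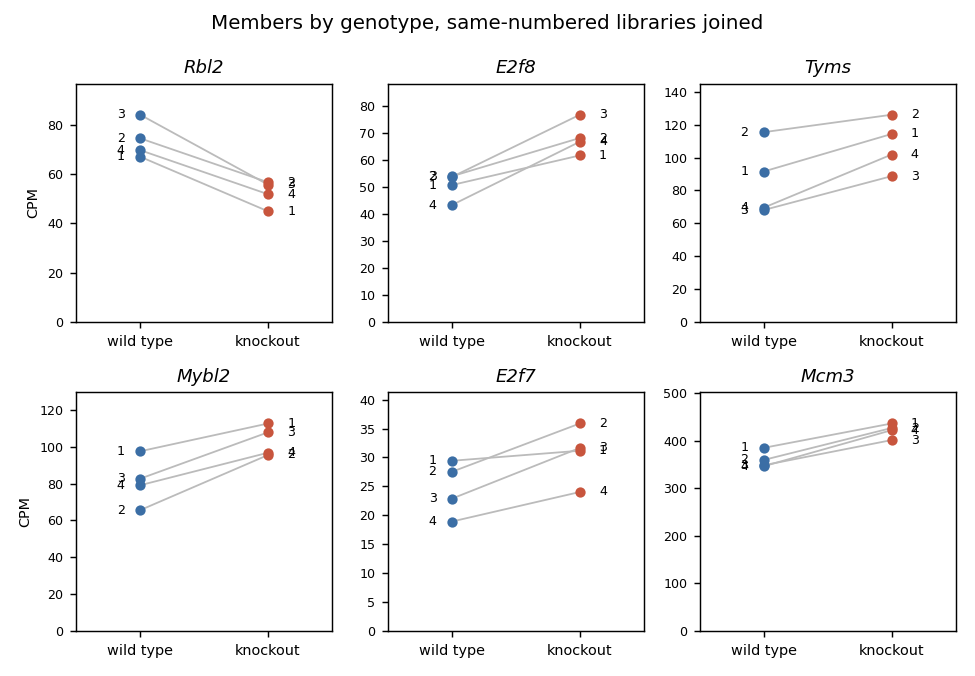
CPM of Rbl2, E2f8, Tyms, Mybl2, E2f7 and Mcm3 (y axes from 0) in the 4 wild-type and 4 knockout libraries; each point is 1 library with its replicate number, and lines join the same number. Rbl2 is lower in the knockout on all 4 lines and the other 5 genes are higher on all 4, and of these 6 genes only Rbl2, E2f8 and Mcm3 have groups that do not overlap.

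The 6 MCM genes encode the ring of the replicative helicase, and all 6 had a positive log2 fold change, between 0.09 and 0.23, with no call in either fit. Their summed level was 1984, 1902, 1944 and 1818 CPM in WT1 to WT4 and 2153, 2114, 2144 and 2126 CPM in KO1 to KO4. Every knockout library had a higher sum than every wild-type library, and the mean sum was 1.12-fold higher. This was not particular to the MCM genes. The mitotic activators Mybl2 and Foxm1 summed to 133 to 172 CPM in wild type and 178 to 197 CPM in the knockout. The further E2F, DP and MuvB factor genes listed below summed to 662 to 711 CPM and 721 to 753 CPM. Among the MCM genes, Mcm3 contributed the largest difference, with 385, 359, 348 and 346 CPM in WT1 to WT4 and 436, 427, 401 and 422 CPM in KO1 to KO4. Its groups did not overlap (exact permutation test, two-sided p = 0.0286), but neither fit called it (0.23 ± 0.07, edgeR adjusted p = 0.453, and with the block 0.0647). Mcm7 shares its locus with Ap4m1, Cops6 and 3 microRNA genes, and what this does to its counts was not tested. Over the 49 genes, groups that did not overlap were found for 3 (Rbl2, E2f8 and Mcm3), 6.12% beside 4.96% of all genes tested. With 1 library fewer the count ran from 3 to 9, where 6.22% to 11.8% of all genes had groups that did not overlap. The highest count and the highest share of all genes, 18.4% of the 49 beside 11.8%, both came without WT2.

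Origin licensing and fork genes lay slightly above 0 without a call. Cdc6 and Cdt1, which load the helicase, were 81.1 ± 7.71 and 87.4 ± 5.92 CPM, and 99.0 ± 9.51 and 104 ± 5.32 CPM, in wild type and knockout. Cdc45 and Gins2, which activate it, were 83.8 ± 19.3 and 90.7 ± 13.5 CPM, and 48.6 ± 8.76 and 54.5 ± 7.04 CPM. Pcna was 553 ± 99.7 and 558 ± 74.0 CPM (SD, n = 4 throughout). Gins2 was higher in the knockout in all 4 pairs (0.17 ± 0.07 with the block, edgeR adjusted p = 0.219), and the other 4 genes were higher in 3 of the 4.

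Cyclins and their kinases showed no call in either fit. Ccnd3, the D-type cyclin prominent in lymphocytes, was 442, 318, 502 and 479 CPM in WT1 to WT4 and 413, 298, 393 and 343 CPM in KO1 to KO4. It was lower in the knockout in all 4 pairs, with overlapping groups (-0.26 ± 0.08 with the block, edgeR adjusted p = 0.111). In wild type and knockout, its kinase gene Cdk6 was 246 ± 71.1 and 210 ± 41.4 CPM, whereas Cdk4 was 343 ± 32.7 and 366 ± 17.2 CPM. The S phase cyclins Ccne1 and Ccna2 were 98.2 ± 7.52 and 90.0 ± 6.30 CPM, and 226 ± 21.4 and 243 ± 20.6 CPM. For entry into mitosis, Ccnb1 was 183 ± 15.1 and 188 ± 21.7 CPM and its kinase Cdk1 was 143 ± 19.1 and 151 ± 2.97 CPM (SD, n = 4).

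All 4 CDK inhibitor genes among the 49 had a negative log2 fold change with genotype alone, and none was called. Cdkn2d (p19) was 110 ± 15.4 (wild type) and 92.7 ± 14.7 CPM (knockout) and was lower in all 4 pairs (edgeR adjusted p = 0.749, with the block 0.105). Cdkn1b (p27), the brake of resting T cells, was 65.7 ± 10.4 and 57.0 ± 5.10 CPM (edgeR adjusted p = 0.753, with the block 0.306). Cdkn2c (p18) was 32.8 ± 13.7 and 31.8 ± 7.93 CPM and had a log2 fold change of -0.05 that turned to 0.0028 with the block. Cdkn1a (p21), the p53 target, was 460 ± 206 and 433 ± 208 CPM; its libraries separated by replicate number.

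The 12 mitosis and proliferation genes had no call in either fit, with log2 fold changes from -0.09 to 0.19. Mki67 was 423, 435, 662 and 586 CPM in WT1 to WT4 and 449, 465, 669 and 780 CPM in KO1 to KO4. Top2a, which untangles daughter chromosomes, was 774 ± 62.1 and 882 ± 104 CPM in wild type and knockout, and the mitotic kinase gene Plk1 was 138 ± 13.7 and 143 ± 14.5 CPM (SD, n = 4). The kinase gene Aurkb and the anaphase activator gene Cdc20 were higher in the knockout in all 4 pairs and not called (edgeR adjusted p with the block 0.195 and 0.141). The other 7 genes of the group, Bub1, Bub1b, Aurka, Cenpa, Cenpe, Kif11 and Birc5, which serve the spindle checkpoint, the centromere and chromosome movement, had log2 fold changes between -0.09 and 0.15.

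The intervals show how much room is left for a difference. The shares of all genes given beside them are not matched for level, and all genes tested include genes with far fewer counts. With genotype alone the 95% interval of the log2 fold change lay within 1.5-fold either way for 39 of the 49 genes, against 46.9% of all genes. It lay within 2-fold for 48, Cdkn1a being the exception (background 71.8%). With the block, 47 genes lay within 1.5-fold (background 61.0%), the exceptions being Rbl2 and E2f8, and 49 within 2-fold (background 82.1%). The median log2 fold change over the 49 was 0.08 (all genes -0.0031), and 30 were positive (61.2%, against 49.5% of all genes). In all 4 pairs 14 were higher in the knockout (28.6%, background 15.8%) and 4 were lower (8.16%, background 14.8%). The median over the 49 of the knockout minus wild-type difference was 0.04, -0.06, 0.11 and 0.22 in pairs 1 to 4, so the sign of that median was not shared by pair 2, the pair with female cells.

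**Figure D3:**
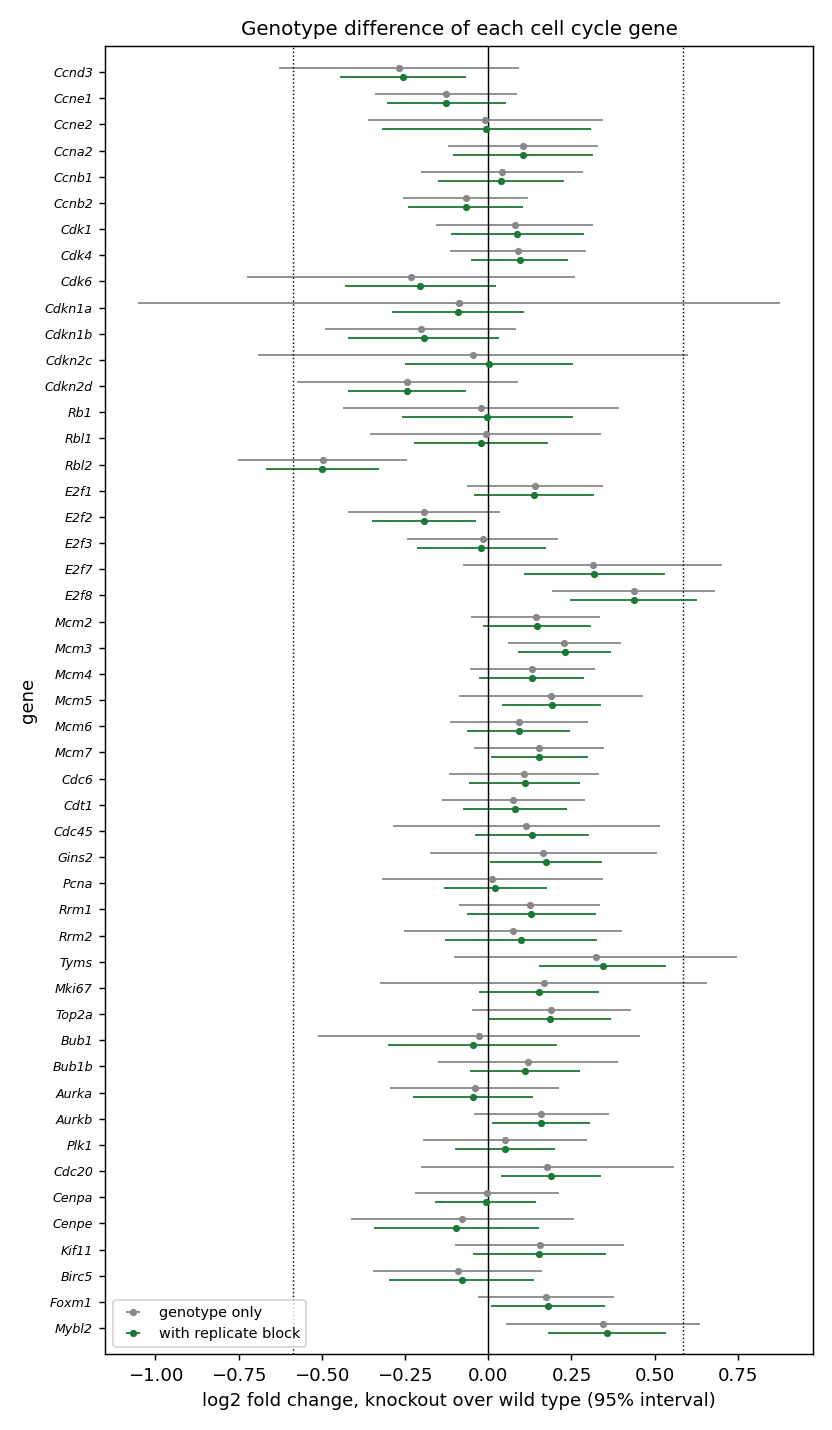
Log2 fold change, knockout over wild type, of each of the 49 genes with its 95% interval from edgeR, with genotype alone (grey) and with the replicate block (green); dotted lines mark 1.5-fold. With the block only the intervals of Rbl2 and E2f8 reach past a dotted line, and the grey interval of Cdkn1a, from -1.05 to 0.88, is the widest.

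More of the 49 genes were called between replicate numbers than between genotypes. In the blocked edgeR fit, 14 of the 49 genes differed among the 4 replicate numbers (adjusted p under 0.05), 28.6% beside 28.8% of all genes tested, so these genes differed about as often as any. They were Ccnd3, Cdk6, Cdkn1a, Cdkn2c, Cdkn2d, E2f7, Mcm5, Cdc45, Gins2, Pcna, Tyms, Mki67, Bub1 and Cdc20. The labels do not say what a number stands for. This test was added after the libraries had been seen to lie together by number.

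Cdkn1a had the widest range of the 49. It was 626, 629, 203 and 383 CPM in WT1 to WT4 and 576, 643, 218 and 295 CPM in KO1 to KO4, a 3.17-fold span from the lowest to the highest library. All 4 libraries numbered 1 and 2 lay above all 4 numbered 3 and 4, in both genotypes (edgeR adjusted p = 0.000323 among numbers). Cdkn2c, the other inhibitor high in numbers 1 and 2, was 31.5, 52.3, 27.0 and 20.5 CPM in WT1 to WT4 and 32.6, 42.7, 25.6 and 26.3 CPM in KO1 to KO4 (adjusted p = 0.00592).

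This order of the libraries, or its reverse, was no more frequent among the 49 than among all genes tested. Of the genes with the order of Cdkn1a, Pcna was 638, 641, 468 and 466 CPM in WT1 to WT4 and 652, 584, 500 and 498 CPM in KO1 to KO4 (edgeR adjusted p = 0.0171). Mcm5, Cdc45, Gins2 and Cdc20 were also higher in every library numbered 1 or 2 than in any numbered 3 or 4, which gave 7 genes with this order (14.3%, background 14.6%). In the reverse order stood Mki67, whose mean was 443 CPM in numbers 1 and 2 and 674 CPM in numbers 3 and 4 (adjusted p = 0.00472), with Rbl1, Bub1b and Cenpa, 4 genes against a background of 13.6%. Mki67 and Cdc20 both carry CHR matches in the promoters printed above and stood in opposite orders, with Cdc20 at 240 and 176 CPM. Bub1, a spindle checkpoint kinase gene, was 56.0, 77.1, 75.8 and 91.4 CPM in WT1 to WT4 and 60.2, 54.8, 79.4 and 100.4 CPM in KO1 to KO4 (edgeR adjusted p = 0.031 among numbers), with number 4 highest in both genotypes. Gamma-delta receptor genes also differed among numbers, and their part in this pattern was not tested. Cdc20 overlaps Elovl1, Mki67 overlaps Gm45240 and Cdkn1a overlaps AC167363.2, each on the opposite strand. The Pcna pseudogenes in the table held 690 counts beside 157225 for Pcna, and how reads matching both were counted was not stated.

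**Figure D4:**
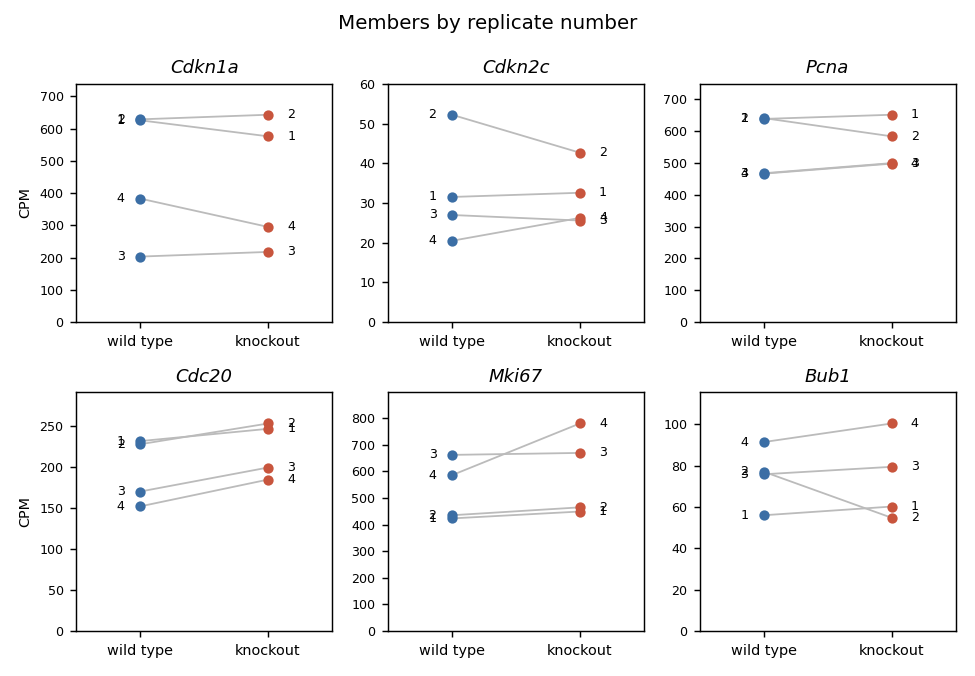
CPM of Cdkn1a, Cdkn2c, Pcna, Cdc20, Mki67 and Bub1 (y axes from 0) by genotype; each point is 1 library with its replicate number and lines join the same number. Numbers 1 and 2 lie at the top for Cdkn1a, Cdkn2c, Pcna and Cdc20 and at the bottom for Mki67.

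Beyond the 49, 104 further genes of the cycle were listed by role, and all 104 were tested. With genotype alone edgeR called 0 of them (background 0.157%), with 8 at an unadjusted p under 0.05 (background 8.1%), and DESeq2 called 2 (background 1.46%). The blocked edgeR fit called 1 higher (background 2.69%) and 5 lower (background 4.01%), so the share of called genes was again near the background. By group, the calls fell on 2 of 4 other CDK inhibitors (lower), 2 of 8 quiescence genes (lower), 1 of 2 growth input genes (lower) and 1 of 15 replication fork enzymes (higher). None was called in either fit among 10 other cyclins and kinases, 5 CDK phosphatases and inhibitory kinases, 9 other E2F, DP and MuvB factors, 13 origin genes, 4 other nucleotide synthesis genes, 21 other mitosis genes, 7 ubiquitin ligase genes and 6 checkpoint genes.

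Cdkn2a and Cdkn2b lie side by side (chr4:89274471-89294653 and chr4:89306299-89311039, minus strand) and encode the INK4 inhibitors p16 and p15, with p19ARF also from Cdkn2a. Cdkn2a was 15.4, 6.96, 8.02 and 2.22 CPM in WT1 to WT4 and 4.11, 2.23, 3.004 and 0.718 CPM in KO1 to KO4. Cdkn2b was 6.34, 4.12, 4.32 and 1.43 CPM in WT1 to WT4 and 1.45, 0.966, 1.25 and 0.604 CPM in KO1 to KO4. Both fell in every pair, and both were lowest in WT4 and KO4 within their genotype, and WT4 lay below KO1 for each. The blocked fit gave -1.66 ± 0.15 for Cdkn2a (3.16-fold, edgeR adjusted p = 0.000695) and -1.87 ± 0.21 for Cdkn2b (3.66-fold, adjusted p = 0.00154), and both were called in each of the 4 fits that left out a pair. With genotype alone the edgeR adjusted p was 0.52 and 0.276, and DESeq2 called Cdkn2b (0.00227) and not Cdkn2a (0.104).

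Mycn, a Myc family transcription factor gene that promotes growth (chr12:12936093-12941914), was 12.6, 5.41, 10.6 and 5.39 CPM in WT1 to WT4 and 3.62, 1.91, 2.38 and 0.907 CPM in KO1 to KO4. Its groups did not overlap (exact permutation test, two-sided p = 0.0286). It fell 3.88-fold in the blocked fit (-1.95 ± 0.19, edgeR adjusted p = 0.00085, called in each fit that left out a pair), and genotype alone gave an edgeR adjusted p of 0.271 and DESeq2 0.000954. Myc itself, at 164 CPM per kb against 1.37 for Mycn, was 463 ± 59.2 and 431 ± 88.9 CPM and was not called. The gamma-delta receptor genes Trdc, Tcrg-C1 and Tcrg-C2 all fell in the blocked fit (-2.13 ± 0.18, -1.60 ± 0.20 and -1.68 ± 0.13), with the same order of low WT4 and KO4. Their part in the levels of Cdkn2a, Cdkn2b and Mycn was not tested.

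Pole, which encodes the catalytic subunit of the leading-strand polymerase, was 116, 94.6, 101 and 91.5 CPM in WT1 to WT4 and 132, 146, 122 and 139 CPM in KO1 to KO4. Its groups did not overlap (0.42 ± 0.09 with the block, edgeR adjusted p = 0.0301, lost without the pair numbered 3 or 4). Of the quiescence genes, Foxo1, which keeps resting T cells alive and out of cycle, was 94.6, 140, 134 and 134 CPM in WT1 to WT4 and 78.2, 102, 115 and 99.99 CPM in KO1 to KO4 (-0.34 ± 0.07 with the block, edgeR adjusted p = 0.0285). Klf2, a target of Foxo1 that holds T cells quiescent, was 15.5, 18.1, 21.6 and 13.2 CPM in WT1 to WT4 and 13.7, 8.21, 13.0 and 8.20 CPM in KO1 to KO4 (-0.68 ± 0.15, adjusted p = 0.0345). Both fell in all 4 pairs, with overlapping groups, and each kept its call in only 1 of the 4 fits that left out a pair. Of the 8 quiescence genes, 2 had a positive log2 fold change with genotype alone. In all 4 pairs 1 of the 8 was higher in the knockout (background 15.8%) and 4 were lower (background 14.8%). Cyclin D2 and Cdk2, which drive the first part of the cycle, were not called: Ccnd2 was 1002 ± 77.8 and 1011 ± 207 CPM and Cdk2 80.4 ± 7.87 and 77.1 ± 11.3 CPM (SD, n = 4).

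**Figure D5:**
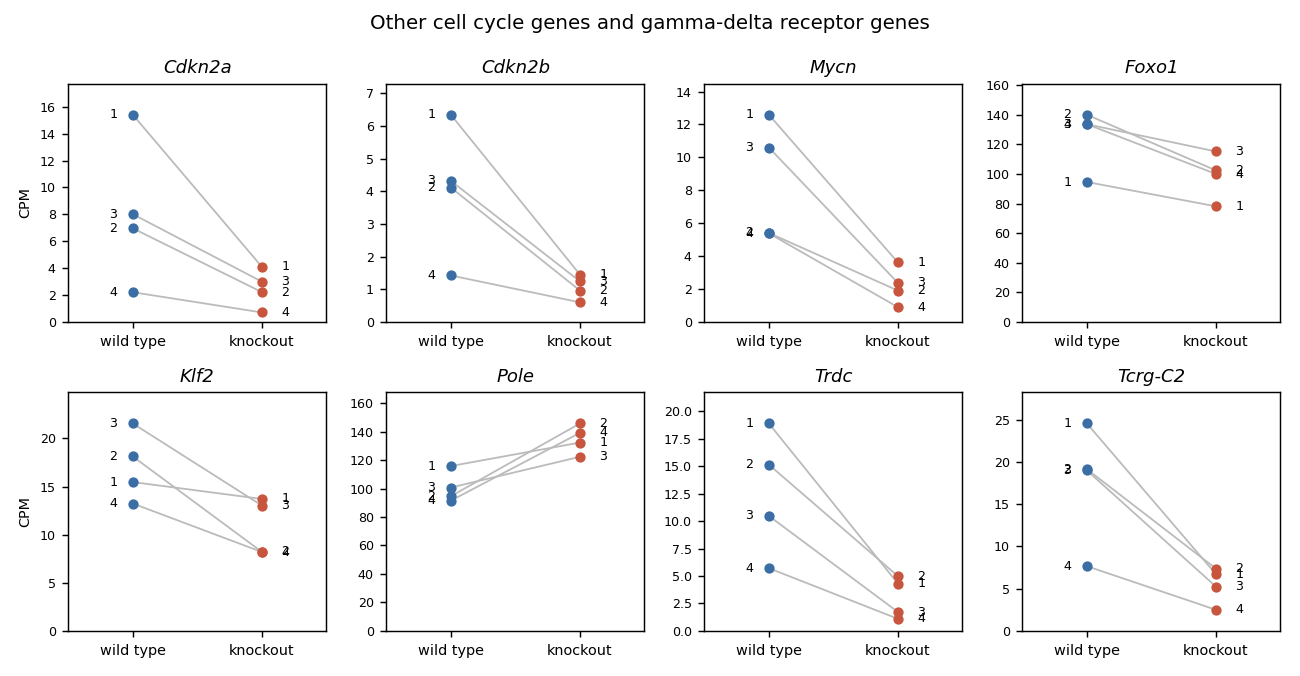
CPM of Cdkn2a, Cdkn2b, Mycn, Foxo1, Klf2, Pole and the gamma-delta receptor genes Trdc and Tcrg-C2 (y axes from 0) by genotype; each point is 1 library with its replicate number and lines join the same number. Pole is higher in the knockout on all 4 lines and the other 7 genes are lower on all 4, with number 4 lowest in both genotypes for Cdkn2a, Cdkn2b, Trdc and Tcrg-C2.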

How the data were processed

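The values start from a deposited table of read counts per gene for 8 libraries of mouse CD4+ T cells at 72 h, 4 per genotype. Reads were aligned with STAR 2.5.2 to GRCm38 and counted with featureCounts (Subread 1.5.2), per the submitters' processing notes. The annotation, strand setting and multi-mapping rule were not given in the sources used here. The authors' table also holds, per the file headers, a DESeq2 mean normalized signal (baseMean), a log2 fold change, its standard error and Wald statistic (score columns) and a p-value with its adjusted p-value; the deposited log2 fold change has wild type over knockout as its sign. From that table the number of calls among the 49 genes is printed.

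The deposited counts were tested with edgeR 4.0.16 in R 4.3.3 (TMM factors, filterByExpr, quasi-likelihood test, Benjamini-Hochberg adjustment over 14672 genes, threshold 0.05), with genotype as the only term. CPM and log2 CPM use the TMM factors, with a prior count of 2 for log2 CPM. Errors of log2 fold changes are standard errors derived from the quasi-likelihood test: the absolute log2 fold change over the square root of the F statistic. Intervals are 95% and were built from these errors with a t quantile. Single genes were compared by exact permutation of 4 against 4. Alternatives were a replicate block, DESeq2 1.42.0, its size factors in edgeR, no filter, and fits without each library or each replicate number. The script was tested on simulated data. Exon lengths, positions and overlapping genes came from GENCODE vM21 and promoters from RefSeq, both on GRCm38.

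The replicate numbers pair the libraries by the data, not by the labels, which name no litter, animal or day. Deviations from the group means correlated at 0.612 to 0.732 between same-numbered libraries across genes, over 0.1 in every pair, and each library correlated best with its own number. Numbers 1 and 2, and numbers 3 and 4, also deviated together: the correlation was 0.304 for WT1 with KO2, 0.15 for WT2 with KO1, 0.433 for WT3 with KO4 and 0.538 for WT4 with KO3, and below 0 for the other different-numbered pairs.

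The members, the role groups, the 104 further genes and the marker lists were chosen with earlier results of these data known. Every member could be named. Full values go to members called in either fit, to the 5 largest log2 fold changes in each direction and to 19 listed genes; of the further genes, to those called and to Ccnd2, Cdk2 and Myc. The order of numbers 1 and 2 against 3 and 4 and the test over replicate numbers were added after seeing the data. Of the marker lists, 1 gene is not reported here.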

Additional observations from a re-analysis of the deposited data

Results flagged for a closer look

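In 116 sets of 4 libraries, 3 had a library far from the others by the gap between it and its nearest neighbour; chance flags about 1 in 20 such groups. Ccna2 was 257.8 CPM in WT2, against 212.3 to 219.2 CPM in the other wild-type libraries. Rrm2 was 352.7 CPM in KO4, against 378.8 to 382.7 CPM in the other knockout libraries. Foxo1 was 94.59 CPM in WT1, against 133.6 to 140.0 CPM in the other wild-type libraries.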

How the results depend on the processing

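The replicate block raised the genes called from 23 to 984, the members called higher from 0 to 3 and those called lower from 0 to 1. DESeq2 called 225 genes and 1 member lower. Leaving out libraries or, in blocked fits, pairs moved the genes called between 14 and 1437, the members called higher between 0 and 4, those called lower between 0 and 2, and the members whose groups do not overlap between 3 and 9 (5 without WT1 or KO2, 9 without WT2, 6 without WT3). Fits without 1 library called 14 to 24 genes, with 14 without WT3 or WT4 and 15 without KO4; blocked fits without pair 1, 2, 3 or 4 called 622, 1437, 398 and 529. Over all alternatives the median log2 fold change of the members lay between 0.04 and 0.13. In the 150 bases before the start, a shorter window by construction, CHR letters stood in 21.4% of the 42 genes (11.2% of all genes with a promoter) and E2F letters in 14.3% (1.44%). With the block, Cdkn2c (0.0028) and Ccnd2 (-0.0071) changed sign. Some log2 fold changes near 0 crossed it: without 1 library Ccnb1 ran from -0.031 to 0.088, Cdkn1a from -0.34 to 0.13, Cdkn2c from -0.22 to 0.27, Rb1 from -0.14 to 0.15, Pcna from -0.070 to 0.091, Rrm2 from -0.033 to 0.21, Plk1 from -0.019 to 0.098, Ccnd2 from -0.095 to 0.092 and Cdk2 from -0.15 to 0.0069. With the block, the sign turned without pair 4 for Ccnb1 (-0.027) and Cdkn1a (0.0044), without pair 2 for Rb1 (0.15) and without pair 3 or 4 for Pcna (-0.0064 and -0.0034). Blocked fits without pair 1, 2, 3 or 4 gave -0.013, 0.11, 0.028 and -0.11 for Cdkn2c and -0.057, -0.093, 0.047 and 0.074 for Ccnd2, on both sides of 0. No other gene recomputed under the alternatives changed sign. The block lost no call of a named gene, and neither DESeq2 size factors in edgeR nor dropping the filter changed one. Depth limits the low genes most: Cdkn2b was 0.604 CPM in KO4 and Klre1 0.114 CPM in KO1.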

Other observations

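Markers of cells other than T cells stood at low levels. The mast cell and basophil genes Mcpt8, Cpa3 and Prss34 had 262, 170 and 143 counts in WT1 and 139, 97 and 84 counts in WT3, and at most 7 counts in any other library. Of the B cell genes, Ms4a1 had 44 counts in KO1 and at most 5 elsewhere, Cd79a was 0.72 to 0.951 CPM in wild type and 0.302 to 1.45 CPM in the knockout, highest in KO1, and Cd79b was 0.159 to 0.677 CPM and 0.0756 to 0.513 CPM. Neither Cd79a nor Cd79b was called (edgeR adjusted p with the block 0.86 and 0.295). Of the natural killer genes, Ncr1 had 0 counts in every library, Klrb1c had at most 9, and Klre1 was 0.657, 0.423, 2.98 and 1.11 CPM in WT1 to WT4 and 0.114, 0.204, 1.21 and 0.491 CPM in KO1 to KO4, lower in the knockout with the block (-1.41 ± 0.30, edgeR adjusted p = 0.0285). The myeloid genes Lyz2, Itgam, Csf1r and Itgax had at most 8 counts in any library, as did the red cell genes Hbb-bs and Hba-a1. The myeloid gene Adgre1 was 0.476, 0.733, 0.0327 and 0 CPM in WT1 to WT4 and 0.428, 1.62, 0 and 0.189 CPM in KO1 to KO4, highest in number 2 of both genotypes (not called by genotype, edgeR adjusted p with the block 0.462; adjusted p = 0.00786 among numbers).

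Of 8 quiescence genes, 6 were called among replicate numbers and 2 between genotypes in the blocked edgeR fit, where 28.8% and 6.71% of all genes were called. Their summed level was highest in number 2 of both genotypes, at 1422 CPM in WT2 and 1313 CPM in KO2, against 916 to 1052 CPM in the other libraries. This was not particular to the quiescence genes. The other cyclins and kinases and the T cell genes also summed highest in WT2 and KO2, whereas the 49 genes did not in KO2. Number 2 is the pair with female cells.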
